A study of Mus musculus with 4 samples.

Results

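The S100 genes encode small calcium-binding proteins, and 10 of them were followed across 4 mouse lung cancer lines: S100a1, S100a4, S100a6, S100a8, S100a9, S100a10, S100a11, S100a13, S100a14 and S100a16. They were chosen by gene symbol, and all 10 were found among the 34147 distinct symbols of the deposited table, each in a single row. The lines came from tumours of 129S1/SvImJ mice that carried p53flox/flox, in which a virus carrying Cre recombinase deletes p53 (Trp53). All 4 lines share 1 genotype, and no line without it was analysed here. The metastatic group consists of 238N1 and 482N1, taken from lymph nodes, and the non-metastatic group of 368T1 and 394T4, taken from lung. Each line gave 1 RNA library, so each group holds 2 lines, and p-values measure the spread between lines of a group. The labels speak both of cancer cells cultured in vitro and of tumour samples. The deposited values are named as mouse in vitro RNA-seq, which points to cultured cells, though the labels by themselves leave this unsettled. The sources used here do not state the age of the mice, the promoter that drove Cre or whether a line is a single clone.

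S100 proteins carry a pair of EF-hand loops and mostly work as dimers. Calcium binding exposes a surface that grips a target protein, which differs between family members: annexins for several, non-muscle myosin for S100A4. Some members are also released from cells and act through receptors such as RAGE (Ager) and TLR4. In the lung, S100A8 and S100A9 are best known from neutrophils, S100A4 from fibroblasts and invasive cells, and S100A14 from epithelia.

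Levels are given in FPKM, fragments scaled to transcript length and sequencing depth, which allows levels of different genes to be compared. The FPKM sums ran from 924354 to 2279794 between libraries, and those over protein-coding genes from 413128 to 492076. Read totals are unknown. The lowest values step in units of 1 fragment, and by that measure 482N1, 368T1 and 394T4 had 0.58, 0.608 and 0.55 of the depth of 238N1, if all libraries were normalised alike. All 5 carcinoma markers (Epcam, Krt8, Krt18, Krt19 and Cdh1) stood above 1 FPKM in every line. The lymphocyte and endothelial markers stayed under 1 FPKM in every line, and Cd14 was the only 1 of 12 neutrophil and myeloid markers in the table to reach 1 FPKM, while Ptprc, Itgam and Mpo were listed at 0 throughout.

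By the members' own rows, S100 expression was dominated by the same 3 genes in every line. S100a6, S100a10 and S100a11 together made up 83.1% of the summed FPKM of the 10 genes for 238N1, 86.3% for 482N1, 83.9% for 368T1 and 84.8% for 394T4. Line 238N1 had a sum over the 10 genes of 2139 FPKM, 482N1 of 2839, 368T1 of 2879 and 394T4 of 2827, so 238N1 was the low library and the other 3 lay close together. As a share of the summed FPKM of protein-coding genes it was 0.511%, 0.688%, 0.586% and 0.593%, in the same order, with 482N1 highest. These sums and shares leave out Gm12854, a near-identical copy of S100a11 with 2054 to 2599.6 FPKM, described below. Whether its fragments belong to S100a11 is not known, so the sums, the shares and the order of lines carry that doubt. S100a1, S100a4, S100a13 and S100a16 formed a middle tier, S100a14 ranged from the middle tier down to under 2 FPKM, and S100a8 had the lowest levels above 0. S100a9 was listed at 0 in every line and is given no place in this order.

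**Figure D1:**
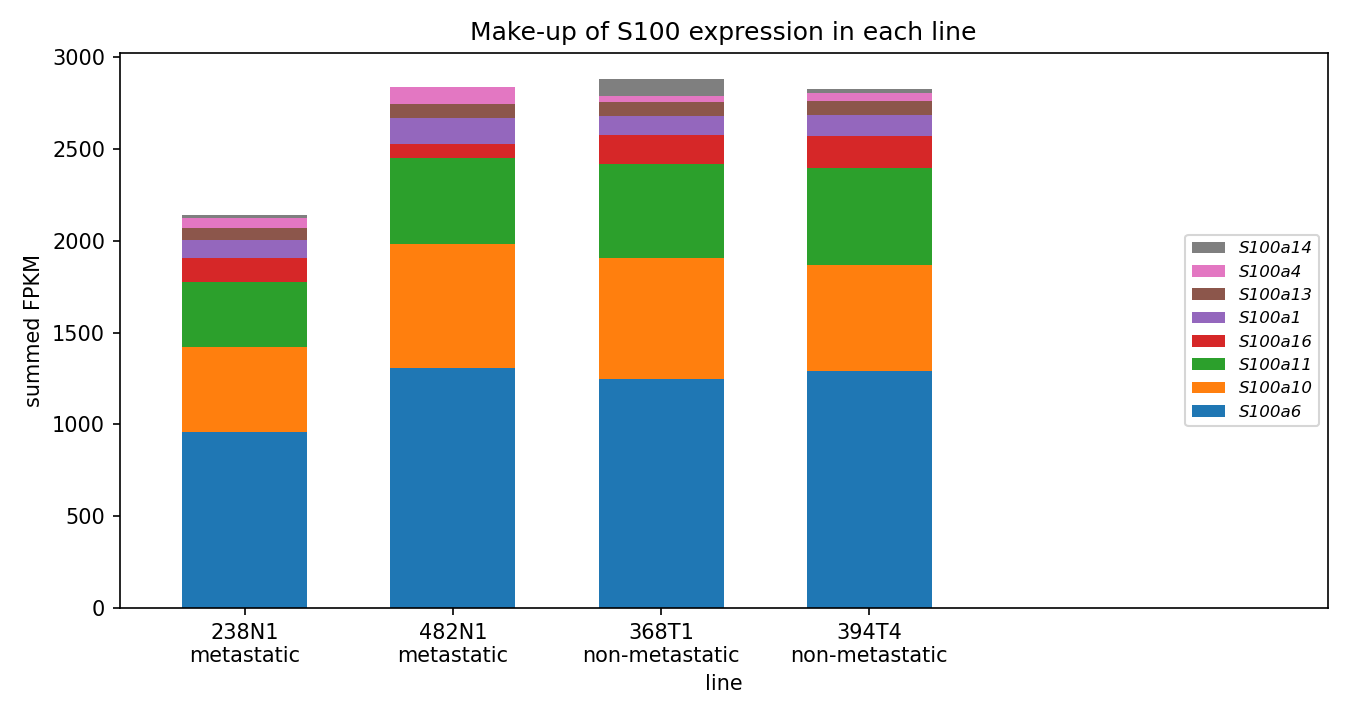
Summed FPKM of the S100 genes in each line, 1 bar per line (1 library each), split by gene. S100a8, too low to see, and S100a9, listed at 0, are left out. S100a6, S100a10 and S100a11 fill 83.1% to 86.3% of each bar, and the S100a14 segment is visible mainly in 368T1.

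**Figure D2:**
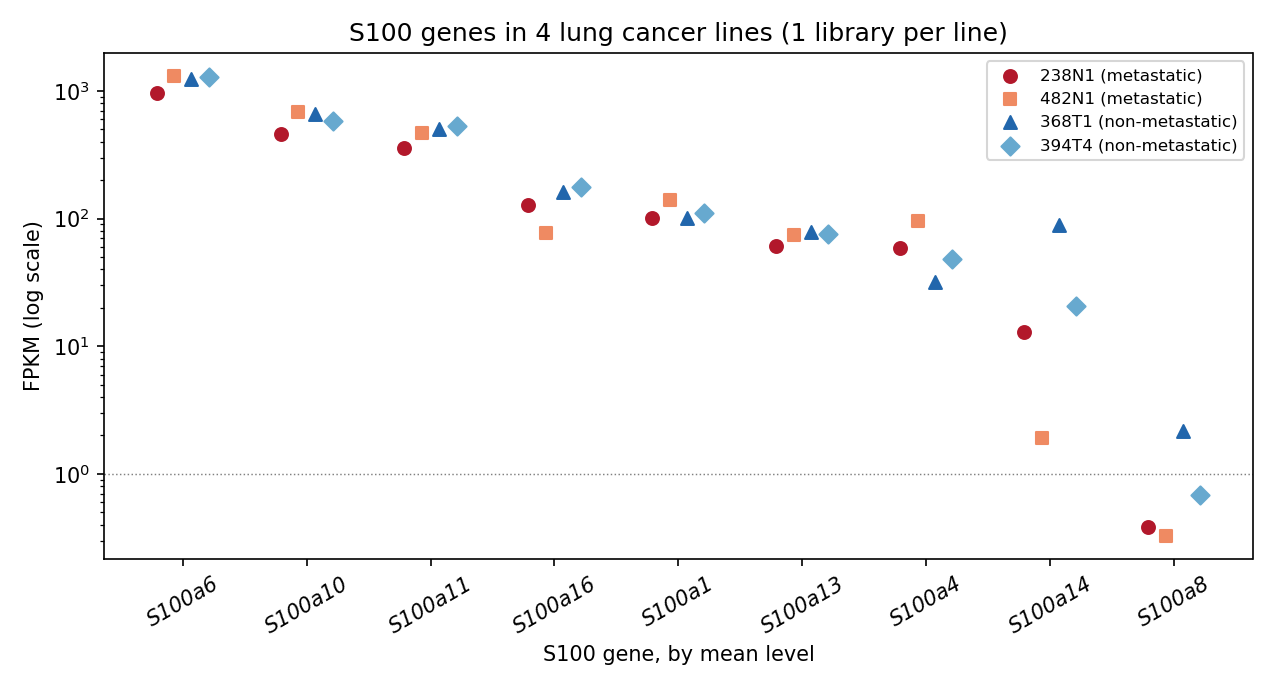
FPKM on a log scale for 9 S100 genes, ordered by mean level, with 1 point per line. The dotted line marks 1 FPKM, and S100a9, listed at 0 in every line, is not drawn. The points of S100a6 lie between 961 and 1307 FPKM, those of S100a14 between 1.92 and 88.6 FPKM.

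The metastatic and non-metastatic lines were compared with limma on log2(FPKM + 1), over the 12425 genes with a mean of at least 1 FPKM. Of the 10 S100 genes 8 were tested, since S100a8 had a lower mean and S100a9 was listed at 0 in every line. None passed at an adjusted p under 0.05, where 0.113% of all genes tested were called higher and 0.0483% lower. Without the genes listed at 0 in any library, these calls over all genes were 0 higher and 6 lower. Over all 12425 genes and at an unadjusted p under 0.05, S100a4 was the only member higher and none was lower. Beside it, 5.7% of all genes were higher and 8.68% lower. In 1 of the 8, S100a4, the metastatic pair of lines stood entirely above the non-metastatic pair, and in 4 (S100a11, S100a13, S100a14 and S100a16) entirely below, against 28.3% and 26.9% of all genes tested. These shares are high among all genes, so lack of overlap by itself is common here. The median log2 fold change of the 8 genes was -0.19, with 6 below 0, but 0.452 once libraries were scaled to their FPKM sum, a scaling that moved the median of all genes to 0.61. As deposited, the median of all genes tested was 0.05, with 46.6% below 0. Fold changes below are metastatic minus non-metastatic on the log2(FPKM + 1) scale, which understates the change of low genes.

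**Figure D3:**
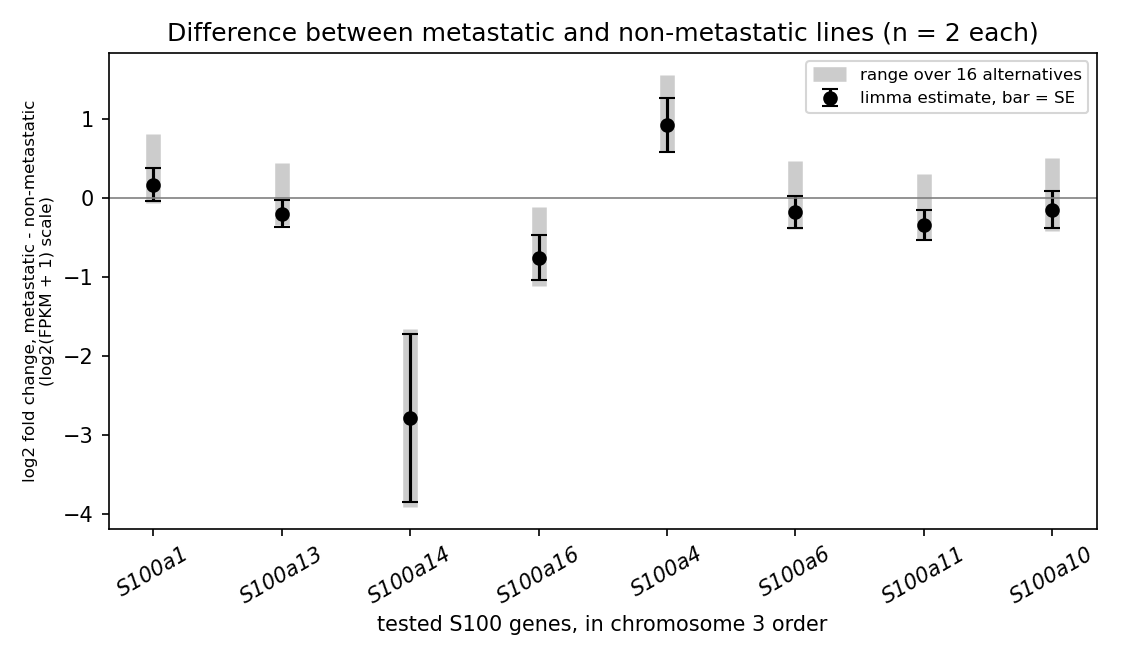
Log2 fold change of the 8 tested S100 genes in their order along chromosome 3. Black points are the limma estimates with their SE, from 2 lines per group, and grey bars span the estimates under 16 alternative analyses. S100a4 stays above 0 and S100a14 and S100a16 below 0 in all 16, while the bars of the other 5 genes cross 0. For S100a4, S100a14 and S100a16, whose groups do not overlap, only the scalings among these alternatives could have reversed the sign.

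By the members' own rows, the most abundant was S100a6, calcyclin, a growth-associated protein that binds the calcyclin-binding protein Cacybp and annexin A11. Line 238N1 had 961 FPKM, 482N1 1307, 368T1 1247 and 394T4 1289, and S100a6 ranked 62, 32, 46 and 36 among the genes tested in the respective lines. The groups overlapped, with the highest and the lowest value both in metastatic lines (log2 fold change -0.18, SE 0.20, limma adjusted p = 0.64). It was the only member among the 100 most abundant genes in every line. Its gene lies on the plus strand of chromosome 3 (90416816 to 90418336, mm9).

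S100a10, also called p11, came next. It is a member that has lost calcium binding and forms a tetramer with annexin A2 (Anxa2) at the cell surface, where the complex can bind plasminogen. S100a10 (chromosome 3, 93359002 to 93368565) measured 462 FPKM for 238N1, 677 for 482N1, 662 for 368T1 and 581 for 394T4 (log2 fold change -0.15, SE 0.24, adjusted p = 0.744). The metastatic lines again held both extremes. Anxa2 had the same order of lines, with 1127 FPKM for 238N1, 1695 for 482N1, 1429 for 368T1 and 1422 for 394T4 (adjusted p = 0.932). The ratio of S100a10 to Anxa2 was therefore narrow, with 0.410 for 238N1, 0.400 for 482N1, 0.463 for 368T1 and 0.408 for 394T4. This ratio does not depend on how libraries are scaled. Its mean was 0.405 ± 0.00720 for the metastatic group and 0.436 ± 0.0385 for the non-metastatic group (SD over 2 lines), a difference smaller than the SD of the non-metastatic lines.

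**Figure D4:**
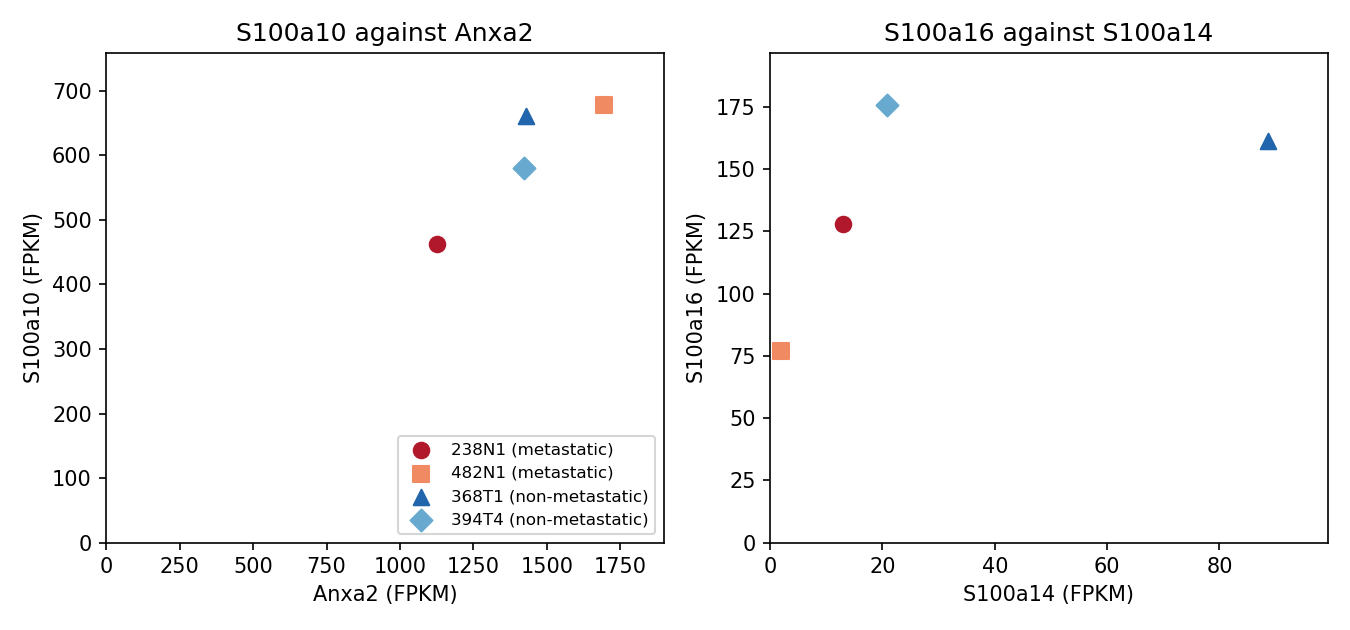
FPKM of S100a10 against its partner Anxa2 (left) and of S100a16 against its neighbour S100a14 (right), 1 point per line, all axes from 0. The S100a10 points lie near 1 line through the origin, with ratios from 0.400 to 0.463. The S100a16 to S100a14 ratio runs from 1.82 in 368T1 to 40.0 in 482N1.

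S100a11, calgizzarin, binds annexin A1 (Anxa1) and takes part in membrane repair and keratinocyte growth control. Its gene (chromosome 3, 93324410 to 93330209) measured 354 FPKM for 238N1, 466 for 482N1, 507 for 368T1 and 526 for 394T4. The metastatic lines were the lower ones, but the gap to the non-metastatic lines was smaller than the gap between 238N1 and 482N1 (log2 fold change -0.35, SE 0.19, adjusted p = 0.408). The groups overlapped once libraries were scaled to the protein-coding sum, which gave S100a11 a log2 fold change of -0.13. The ratio of S100a6 to S100a11 was 2.71 and 2.80 in 238N1 and 482N1 and 2.46 and 2.45 in 368T1 and 394T4. Anxa1 measured 130.2 FPKM for 238N1, 237 for 482N1, 183 for 368T1 and 211 for 394T4, with overlapping groups (adjusted p = 0.801).

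The S100a11 value is uncertain because the gene has near-identical copies elsewhere. Alignment of the members' transcripts to mm9 found 8 other places for S100a11, 84.0% to 98.8% identical over at least 200 bases, 1 for S100a10 (87.2%) and none for the other 8 members. The closest copies of S100a11, both 98.8% identical, are rows of the table under other names. Gm12854, annotated as a pseudogene at a copy on chromosome 4 (115739808 to 115740297), measured 2054 FPKM for 238N1, 2069.9 for 482N1, 2599.6 for 368T1 and 2456 for 394T4, above S100a11 itself in every line. Gm7665, on chromosome 18, measured 122, 131, 156 and 134 FPKM in the same order of lines. As deposited, without scaling, both copies had lower values in both metastatic lines, as S100a11 had. The log2 fold change was -0.29 for Gm12854 (SE 0.14, limma adjusted p = 0.384) and -0.19 for Gm7665 (SE 0.15, adjusted p = 0.515). These rows may share fragments, so their directions are not independent, and 26.9% of all genes tested lay below in this way. Gm12854 also overlaps Uqcrh on the other strand, which stood at 103.0 to 131 FPKM. The sources used here do not say how the authors' counting divided fragments among these rows. The level of S100a11 relative to other members, and the sums and shares of the family, carry that doubt.

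**Figure D5:**
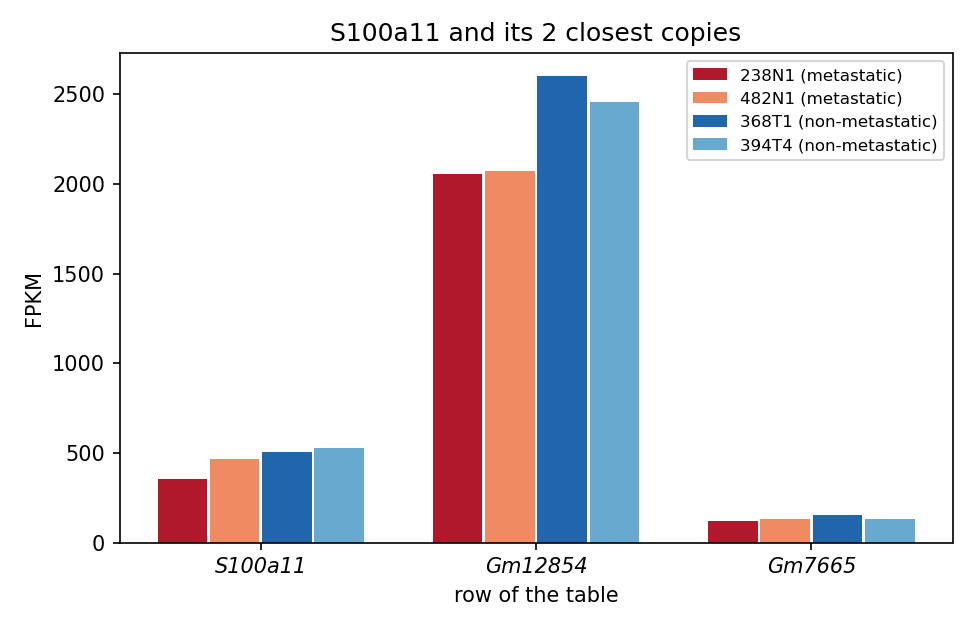
FPKM of S100a11 and of the rows of its closest copies, Gm12854 and Gm7665, with 1 bar per line. Gm12854 stands between 2054 and 2599.6 FPKM, above the 354 to 526 FPKM of S100a11, and for each row both metastatic bars are below both non-metastatic bars. Values are as deposited, and the rows may share fragments.

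S100a1 and S100a13 lie back to back, with 42 bases between the annotated genes (90314956 to 90318314 on the minus strand and 90318357 to 90328503 on the plus strand). S100A1 is the main S100 protein of heart muscle, where it acts on the ryanodine receptor, and S100A13 takes part in the release of FGF1, which leaves cells without a signal peptide. S100a1 measured 101 FPKM for 238N1, 139.7 for 482N1, 102 for 368T1 and 109.8 for 394T4, so 3 lines were close and 482N1 was highest (log2 fold change 0.17, SE 0.21, adjusted p = 0.672). S100a13 had the narrowest span among the tested members, with 60.9 FPKM for 238N1, 74.4 for 482N1, 78.8 for 368T1 and 76.3 for 394T4. Both metastatic values lay below the others, closely so for 482N1, and the groups overlapped after scaling to the library or the protein-coding sum (log2 fold change -0.20, SE 0.17, adjusted p = 0.529). The ratio of S100a1 to S100a13 was 1.66 and 1.88 in the metastatic and 1.29 and 1.44 in the non-metastatic lines. Fgf1 was low, with 8.30 FPKM for 238N1, 2.12 for 482N1, 3.89 for 368T1 and 4.19 for 394T4 (adjusted p = 0.94), and Syt1, which is released together with it, was listed at 0. The ryanodine receptor genes Ryr1 and Ryr2 stayed under 0.06 FPKM.

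The stretch shared by this divergent pair is shown, with the 250 bases before the starts of members that differ in level. The genes shown lie close together, except S100a11, which lies 2.82 Mb beyond S100a9. The sequences come from RefSeq's promoter table (build GRCm38.p6), which held 8 of the 10 members and no entry for S100a10 and S100a14. Each was placed on mm9 by an exact match. Motifs were searched on both strands, and shares are of the 32851 windows of 250 bases in the table. The TATA box, as the letters TATAAA, occurs in 12.4% of those windows. The GC box, as GGGCGG, occurs in 32.7%. The AP-1 motif, as TGANTCA, occurs in 6.75%, and an E-box, as CAGGTG, in 17.2%. Capitals mark matches, none of which overlaps another in these sequences, and each is written in the direction of the gene, or of S100a13 for the shared stretch.
S100a1 and S100a13, chr3:90318253-90318356, plus strand: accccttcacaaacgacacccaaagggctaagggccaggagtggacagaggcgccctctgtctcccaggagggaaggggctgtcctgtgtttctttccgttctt
S100a4, chr3:90407442-90407691, plus strand: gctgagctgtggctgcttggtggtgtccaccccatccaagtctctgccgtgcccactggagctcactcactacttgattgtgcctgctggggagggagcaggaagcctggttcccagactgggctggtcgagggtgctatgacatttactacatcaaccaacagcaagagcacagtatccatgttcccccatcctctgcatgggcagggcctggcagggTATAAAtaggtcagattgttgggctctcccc
S100a8, chr3:90472743-90472992, plus strand: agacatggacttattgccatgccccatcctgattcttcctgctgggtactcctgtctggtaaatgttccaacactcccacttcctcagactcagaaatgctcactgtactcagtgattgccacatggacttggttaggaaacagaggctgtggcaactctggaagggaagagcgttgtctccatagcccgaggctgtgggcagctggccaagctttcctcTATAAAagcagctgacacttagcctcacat
S100a11, chr3:93324168-93324417, plus strand: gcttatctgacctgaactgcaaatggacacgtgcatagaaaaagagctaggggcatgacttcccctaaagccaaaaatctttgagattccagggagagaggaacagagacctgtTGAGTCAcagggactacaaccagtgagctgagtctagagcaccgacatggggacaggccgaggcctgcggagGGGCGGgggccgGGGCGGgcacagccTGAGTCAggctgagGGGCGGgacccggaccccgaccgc
S100a16, first of its starts, chr3:90340926-90341175, plus strand: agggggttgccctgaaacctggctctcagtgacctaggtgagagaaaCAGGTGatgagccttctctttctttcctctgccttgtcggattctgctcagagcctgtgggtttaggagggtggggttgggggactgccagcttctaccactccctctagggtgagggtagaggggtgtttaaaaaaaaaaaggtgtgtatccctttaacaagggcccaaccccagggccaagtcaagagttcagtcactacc

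RefSeq starts S100a1 further inside the gene than GENCODE, whose 42 bases between the genes are part of the shared stretch. The 104 bases between the RefSeq starts of S100a1 and S100a13 hold none of the searched motifs, which occur in 5.69% (TATA box), 25.1% (GC box), 2.87% (AP-1 motif) and 7.31% (E-box) of windows of that length. S100a4 and S100a8, a member of the middle tier and one near 0, each hold a TATA box, beginning 31 and 30 bases before the start. The S100a11 window holds 3 GC boxes and 2 AP-1 motifs and no TATA box. The first S100a16 window holds 1 E-box, and the window of its second start (not shown) holds 1 GC box and 1 AP-1 motif and no E-box. Among other windows not shown, that of S100a6 holds none of the searched motifs. The window of S100a9, listed at 0 in every line, holds 1 GC box and 1 E-box. A match describes letters only and does not show that a factor binds there.

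S100a4, metastasin, binds non-muscle myosin IIA (Myh9) and is known both for promoting cell motility and as a fibroblast marker. It was the only tested member whose metastatic values were both the higher ones, with 58.7 FPKM for 238N1 and 95.5 for 482N1, beside 31.7 for 368T1 and 47.8 for 394T4. The means were 77.1 ± 26.1 and 39.8 ± 11.4 FPKM (SD, n = 2 each), a ratio of 1.94 (log2 fold change 0.93, SE 0.34, limma adjusted p = 0.344). The gap between 238N1 and 394T4, the nearest lines of the different groups, was smaller than the gap between the metastatic lines. Without 482N1 the log2 fold change was 0.58, and without 368T1 it was 0.64. S100a4 (90407692 to 90409967) begins 60.6 kb after S100a16 and ends 6848 bases before S100a6, which was far more abundant. The ratio of S100a6 to S100a4, free of library scaling, was 16.4 and 13.7 in the metastatic and 39.4 and 26.9 in the non-metastatic lines, without overlap. Myh9 itself measured 210.5 FPKM for 238N1, 297 for 482N1, 248 for 368T1 and 274 for 394T4, with overlapping groups (adjusted p = 0.898).

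Fibroblast markers were counted beside S100a4, since in bulk RNA a change in the cells present and a change per cell cannot be told apart. Of 9 markers, 5 reached 1 FPKM in 482N1, none in 238N1 and 1 each in 368T1 and 394T4, with sums of 0.678 FPKM for 238N1, 41.0 for 482N1, 2.47 for 368T1 and 4.30 for 394T4. Col1a2, Dcn and Lum were listed at 0 in all 4 lines. The line with the highest S100a4 was thus the one with the highest sum, but 238N1, with the second highest S100a4, had the lowest. The part of these markers in the S100a4 values was not tested.

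S100a14 varied more than any other member that was tested. It is an epithelial S100 protein, and its gene (90330778 to 90332755) lies 2274 bases after S100a13. S100a14 measured 13.03 FPKM for 238N1, 1.92 for 482N1, 88.6 for 368T1 and 20.8 for 394T4, a 46.1-fold span. The metastatic values were the lower ones, and the lines of a group also differed widely, by 6.77-fold between 238N1 and 482N1 and 4.26-fold between 368T1 and 394T4. The means were 7.47 ± 7.85 and 54.7 ± 48.0 FPKM (SD, n = 2 each), with a log2 fold change of -2.79 (SE 1.06, adjusted p = 0.349). Leaving out 482N1 gave a log2 fold change of -1.66, and leaving out 368T1 gave -1.77. The step between groups, from 13.03 FPKM in 238N1 to 20.8 in 394T4, was smaller than the steps within them. S100a14 was also the only tested member whose lines differed by over 2-fold in FPKM + 1 within a group, in both groups. Among all genes tested, 10.5% differed that much between 238N1 and 482N1 and 6.44% between 368T1 and 394T4. It also passed 4-fold in both, where 4.43% and 3.27% of all genes did.

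S100a16, the next gene along (90341176 to 90347073), is a widely expressed member. Its values were 128 FPKM for 238N1, 76.8 for 482N1, 161 for 368T1 and 176 for 394T4. The non-metastatic lines were close together, 238N1 lay somewhat below them and 482N1 had less than any other line. The means were 102 ± 36.0 and 168 ± 10.2 FPKM (SD, n = 2 in either group), with a log2 fold change of -0.76 (SE 0.29, adjusted p = 0.349). The groups overlapped once libraries were scaled to their FPKM sum (-0.12). The log2 fold change was -1.12 without 238N1 and -0.39 without 482N1. S100a14 and S100a16 were both lowest in 482N1, and no other tested member was. They did not keep step elsewhere, since S100a14 was lower in 394T4 than in 368T1 where S100a16 was nearly level. The S100a16 to S100a14 ratio was 9.81 for 238N1, 40.0 for 482N1, 1.82 for 368T1 and 8.45 for 394T4. The epithelial markers were also lowest in sum in 482N1, at 1760.0 FPKM, beside 2570.0 for 238N1, 3480.0 for 368T1 and 3190.0 for 394T4, a sum carried by the keratins. Epcam by itself had 4.13 FPKM for 238N1 and 4.76 for 482N1, but 54.0 for 368T1 and 34.3 for 394T4, the same split of the groups as S100a14. Krt8, Krt18 and Krt19 were also lower in both metastatic lines. Cdh1 was not, with 173.8 FPKM for 238N1, 104.4 for 482N1, 108.7 for 368T1 and 155.1 for 394T4. The part of these markers in the values of S100a14 and S100a16 was not tested.

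S100a8 and S100a9 encode the subunits of calprotectin, an abundant protein of neutrophils. S100a9 (90496554 to 90499643) was listed at 0 in all 4 lines, which need not mean that it was not expressed. Atp5f1, a subunit of the ATP synthase that nearly all cells use, was also listed at 0 in 3 lines, with 72.0 FPKM for 482N1, so an exact 0 can be a failed estimate. S100a8 (90472993 to 90473956) measured 0.386 FPKM for 238N1, 0.326 for 482N1, 2.17 for 368T1 and 0.685 for 394T4. By the worth of 1 fragment in each library, the fewest whole fragments that fit these values are 2, 1, 7 and 2, to within 2.3%. Multiples of these counts would fit as well. The metastatic values were the lower ones, but at the fewest counts a difference between 1 or 2 fragments and 2 or 7 is not detectable. With no filter on low values, the log2 fold change was -0.77 (SE 0.36, adjusted p = 0.474). The neutrophil genes Mpo, Elane, Camp, Ngp and Csf3r were listed at 0 in all 4 lines. Ly6g had 0.418 FPKM and Ltf 0.105 in 368T1, the line with the highest S100a8, and both were listed at 0 in the other lines. Of the other myeloid markers above 0, Lyz2 and Csf1r were highest in 482N1 and Cd14 in 238N1. The part of these markers in the S100a8 values was not tested. Of the receptors for S100A8 and S100A9, Ager was listed at 0 and Tlr4 had 3.15 and 3.52 FPKM among metastatic lines against 1.75 and 2.28 among the others (log2 fold change 0.53, SE 0.27, adjusted p = 0.394). Bsg, basigin, a far more abundant receptor of S100A9, lay the other way, with 351 and 304 FPKM among metastatic lines against 439 and 496 (-0.51, SE 0.16, adjusted p = 0.335).

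Of the S100 genes outside the 10, 6 were in the table and 2 were tested. S100a7a, a relative of the human psoriasin genes, lies between S100a6 and S100a8 (90458224 to 90462052). Line 238N1 had 73.5 FPKM, 482N1 87.3, 368T1 195 and 394T4 147.8. Here the gap between groups exceeded the differences within them, and the log2 fold change was -1.07 (SE 0.21), but it did not pass over all genes (adjusted p = 0.328). S100a3 was level, with 8.01 FPKM for 238N1, 12.01 for 482N1, 10.9 for 368T1 and 9.45 for 394T4. S100a5 and S100z were listed at 0 in every line, S100b stayed at or under 0.217 FPKM, and S100g reached 1.91 FPKM in 238N1 alone.

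Annexins and other binding partners were counted as lists, and none of their members passed in either direction (20 genes of the 12425 did, 14 higher and 6 lower). Without the genes listed at 0 in any library, 0 genes were called higher and 6 lower. Of 10 annexins tested, 7 had a log2 fold change below 0, with a median of -0.17, beside 46.6% and 0.05 for all genes tested. The directions of Anxa1, Anxa2 and Anxa10 turned above 0 after scaling to the library sum. Annexin A11 (Anxa11), a partner of S100a6, had 29.2 and 21.1 FPKM among metastatic lines against 42.2 and 53.6 among the others (log2 fold change -0.91, SE 0.24, adjusted p = 0.335). The other partner of S100a6, Cacybp, lay the other way, at 24.4 and 34.5 against 18.4 and 21.7 FPKM (0.51, SE 0.24, adjusted p = 0.377). The annexins next in size of difference were Anxa6 (-0.69, SE 0.30, adjusted p = 0.361), Anxa8 (0.67, SE 0.55, 0.526) and Anxa10 (-0.46, SE 0.56, 0.663).

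Of the 30 binding partners and receptors, 28 were in the table and 18 were tested, with a median log2 fold change of 0.21. Plau, urokinase, which activates the plasminogen that S100a10 and annexin A2 can bind, had 5.14 and 8.84 FPKM among metastatic lines against 96.8 and 43.5 among the others (log2 fold change -3.09, SE 0.48, adjusted p = 0.277). Plau passed only after scaling to the library sum (-2.49, limma adjusted p = 0.0274), where 97 of all genes tested were called lower. Ppfibp1, liprin beta 1, a partner of S100a4, stood at 42.2 and 51.5 against 27.1 and 32.9 FPKM (0.63, SE 0.20, adjusted p = 0.335). Ezr, ezrin, had 269.6 FPKM for 482N1 and a listed 0 for the other 3 lines, and S100pbp, an S100P-binding protein gene, had 6.10 FPKM for 238N1, 12.2 for 482N1, 6.16 for 368T1 and a listed 0 for 394T4. These values of 0 may be failed estimates, and no fold is given for them. Both genes are among the 18 tested and count on the higher side of the median of 0.21.

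The S100 genes frame the epidermal differentiation complex of chromosome 3, a run of genes for the outer layer of skin. The first 8 members lie within 185 kb (90314956 to 90499643), and S100a11 and S100a10 follow 2.82 Mb further on. Of 72 other genes between or within 100 kb of the members, 35 were listed at 0 in all 4 lines and 12 were tested. None passed, the median log2 fold change was -0.36, and the metastatic pair of lines stood entirely below the others in 5 and entirely above in 1 of the 12, beside 26.9% and 28.3% of all genes tested. The largest differences were in Crct1 (0.397 and 0.130 FPKM among metastatic lines, 4.01 and 2.49 among the others; log2 fold change -1.73, SE 0.37, adjusted p = 0.328), Sprr2h (-0.98, SE 0.59, 0.434), Lor, loricrin (-0.77, SE 0.78, 0.599) and Sprr1a. Crct1 passed the filter on low values only through the non-metastatic lines, and its log2 fold change was -3.27 with a pseudocount of 0.1 and -0.64 with 5. Sprr1a, a cornified envelope precursor and the most abundant of these, had 156.8 and 133.7 FPKM among metastatic lines against 210.3 and 253 among the others (-0.67, SE 0.18, adjusted p = 0.335).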

How the data were processed

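Expression was measured in 4 mouse lung cancer lines, 1 library each. TruSeq libraries were read as paired ends, per the labels' protocols. The submitters' processing notes name TopHat, without a version, and the build mm9. The deposited values are FPKM per the file headers, with no scaling between libraries stated. Counting tool and annotation were not given in the sources used here. Because FPKM values are no counts, no count test was run and depth is known only as a ratio.

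Of 37527 rows, the row with the highest mean was kept for each repeated symbol. Genes with a mean of at least 1 FPKM were tested with limma 3.58.1 in R 4.3.3, with a variance trend, on log2(FPKM + 1), two-sided, with all 4 libraries and no covariate. P-values were adjusted by Benjamini-Hochberg over all 12425 genes tested, with a threshold of 0.05. The code was tested on simulated data. Positions come from GENCODE vM1 on NCBIM37 (mm9), which held 99.0% of the rows. Copies of the members' transcripts were sought in mm9 with minimap2 2.31-r1302, over at least 200 aligned bases. The fragment worth of each library came from the commonest ratio to 238N1 among values below a mean of 0.08 FPKM, with 152 of 828 genes within 1% of it for 482N1, 146 of 794 for 368T1 and 132 of 804 for 394T4.

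Part of the genotype is not reported here. The members and lists were chosen with earlier results of these data known. All 10 members are named, with each list's 4 tested genes of largest absolute fold change and the known partners of the members. Alternatives were other pseudocounts, filters, scalings and limma settings, leaving out genes with a listed 0, rows of a symbol added up, and each library left out.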

Additional observations from a re-analysis of the deposited data

How the results depend on the processing

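No S100 gene passed limma's adjusted threshold in any of 16 alternatives, where the lowest adjusted p was 0.086, for S100a14 after scaling to the library sum. S100a4 stayed above 0 (log2 fold change 0.58 to 1.56) and S100a14 (-3.92 to -1.66) and S100a16 (-1.12 to -0.12) stayed below 0 in all 16. Of 128 values of the 8 tested members, 117 kept their direction. Many could not change, since filters, limma settings and adding up rows leave a member's log2 fold change as it is. For S100a4, S100a14 and S100a16, whose groups do not overlap, a pseudocount or leaving out 1 library cannot reverse the sign either. Only the scalings could have done so. The direction of S100a1, S100a6, S100a10, S100a11 and S100a13 depended on scaling or on 1 library.

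Scaling to the library sum moved the median log2 fold change of all genes to 0.61 and scaling to the protein-coding sum to 0.24. Scaling to the library sum gave S100a6 0.47, S100a10 0.50, S100a11 0.30, S100a13 0.44, Anxa1 0.48, Anxa10 0.15, Anxa2 0.60, Myh9 0.58 and S100a3 0.54, and a median over the tested members of 0.452. The protein-coding sum gave S100a6 0.04, S100a10 0.07, S100a13 0.02, Anxa1 0.06, Anxa2 0.18, Myh9 0.16 and S100a3 0.15. Quantile normalization gave S100a10 0.08, Anxa1 0.04, Fgf1 -0.11 and Myh9 0.19. Relative to the median of all genes, S100a6, S100a10, S100a11 and S100a13 stayed below 0 after scaling to either sum (-0.14, -0.11, -0.31 and -0.17 after the library sum). Scaling to a sum shifts nearly all genes alike, so these signs could hardly change. After quantile normalization, S100a6 lay at -0.02 and S100a11 at -0.13 relative to that median, but S100a10 at 0.10 and S100a13 at 0.01.

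Members with both metastatic lines above numbered 3 after the library sum (43.6% of all genes), 2 after the protein-coding sum (43.0%) and 2 after quantile normalization (24.3%). Members below numbered 1 (1.93%), 2 (15.5%) and 2 (28.4%), and 5 with no filter (21.1%) or median centring (31.6%). At an unadjusted p, no member was higher with a pseudocount of 0.1, with no filter or without the trend. Lower at an unadjusted p was 1 member at a mean of at least 5 FPKM, with the library sum and with robust=TRUE, and 2 members with genes at 0 in any library removed.

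Over all genes, adjusted calls were 1 higher and 1 lower with no filter, 7 and 3 at a mean of at least 5 FPKM, 281 and 97 with the library sum, 31 and 13 without the trend, 15 lower with robust=TRUE, and 0 higher with genes at 0 removed. Unadjusted, 204 were lower with the library sum, and 1497 higher and 469 lower with the protein-coding sum. With the library sum 2 members of the partner and neighbour lists were called higher and 1 lower. The lower one was Plau (log2 fold change -2.49, limma adjusted p = 0.0274). The causes were not tested.

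With each library left out in turn, adjusted calls over all genes were 0 in both directions. Unadjusted calls ran from 310 to 1249 higher and from 264 to 1277 lower genes. Members at an unadjusted p ran from 0 to 1 in each direction, those above from 1 to 4 (33.0% to 44.9% of all genes) and those below from 4 to 7 (34.2% to 38.8%), and the median over members from -0.396 to -0.007. The fold changes that changed sign ranged from -0.07 to 0.40 for S100a1, -0.40 to 0.04 for S100a6, -0.42 to 0.13 for S100a10, -0.59 to 0.27 for Anxa1, -1.23 to 0.32 for Anxa10, -0.34 to 0.25 for Anxa2, -0.69 to 0.89 for Fgf1, -1.81 to 0.27 for Lor, -0.31 to 0.19 for Myh9 and -0.31 to 0.22 for S100a3. In these fits 1 line stands alone and is assumed to vary like the others. No paired analysis was possible because the labels give no replicate numbers that the groups share.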
